A study of Rattus norvegicus with 16 samples.

Results

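The hairpins rno-mir-199a and rno-mir-214 form a pair of microRNA (miRNA) genes on rat chromosome 13, and their reads were followed in the 16 deposited small RNA libraries. The members were taken by name, as every line of the position files whose hairpin identifier was one of these, which gave 2 of the 392 hairpins and 4 of the 712 hairpin arms with reads. They were chosen by the reads of the mir-199a arms in liver. There the 3p arm was far lower in SHR liver 1 while the 5p arm was not. Liver levels and arm ratios of mir-199a are therefore given as a description, without a test. Libraries came from adult male rats of the inbred strains BN-Lx (polydactyly-luxate syndrome brown Norway) and SHR (spontaneously hypertensive rat), untreated as far as the labels say. The 12 libraries of the 6-tissue set hold 1 library per strain of heart, kidney, spleen, testis, liver and whole brain, each strain being 1 rat. In addition, 4 further livers were sequenced, BN-Lx livers 2 and 3 and SHR livers 2 and 3, and liver 1 is that of the 6-tissue set. Depth ranged from 26880 to 1064894 hairpin reads in the 6-tissue set, with testis shallowest, and from 1167607 to 3229461 in the further livers. Both hairpins together had 62274 of 15196294 reads. According to the methods, SHR liver and the testes were amplified with more PCR cycles than the other libraries of the 6-tissue set, whether SHR livers 2 and 3 had the added cycles too is not clear from them, and since copies of a molecule are not marked, intervals below cover counting error only.

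A miRNA hairpin is cut by Drosha and Dicer into a short duplex of its 5′ arm (5p) and its 3′ arm (3p), and usually 1 strand of the duplex stays in the silencing complex while the other is lost. Target choice rests mainly on the seed, bases 2 to 8 of the mature strand, so a shift in the arm used or in the 5′ end changes the targets, while the 3′ end is free to vary and is often trimmed or extended. In mammals mir-199a and mir-214 are made from a common transcript, Dnm3os, that runs antisense within the dynamin gene Dnm3, and they are known from mesenchyme, fibroblasts, vessel wall and heart muscle, and in liver from stellate cells.

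The mature sequences below, from RefSeq on assembly GRCr8, are shown because the results turn on which arm was read and where its reads ended; capitals mark the seed, bases 2 to 8.
rno-miR-199a-5p: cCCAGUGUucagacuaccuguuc
rno-miR-199a-3p: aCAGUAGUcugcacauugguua
rno-miR-214-3p: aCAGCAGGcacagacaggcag
All lie on the plus strand, mir-199a-5p at chr13:77116255-77116277, mir-199a-3p at chr13:77116294-77116315 and mir-214-3p at chr13:77121713-77121733. A stretch of 5329 bases separates mir-199a-3p from the mir-214 hairpin (chr13:77121645-77121752), and both genes are annotated as miRNA genes within the span of Dnm3 (its exons were not analysed here). The 3p arms of the hairpins look alike at their 5′ ends, and over bases 1 to 8, counted from the 5′ end with mir-199a-3p first, they differ by U5C and U8G. No seed is shared among these 3 arms.

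Levels across the 6 tissues are reads over the ocm, the outlier-corrected mean that the study's methods use for scaling. It averages the reads of known hairpin arms in a library after the 3 highest are set aside. A level of 1 therefore equals an average arm of that library. The labelled tissues carried their own miRNAs. Neuronal, hepatocyte, muscle, blood-cell and germ-cell hairpin lists were each higher in both libraries of brain, liver, heart, spleen and testis, respectively, than in every other library. The kidney epithelium list was not, its summed level being 61.0 and 78.9 in kidney and up to 175 elsewhere.

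mir-199a-5p was high in heart and kidney and low in brain. In heart its level was 4.79 for BN-Lx and 4.43 for SHR, and in kidney 5.35 and 4.66. Testis followed with 4.64 in BN-Lx and 2.70 in SHR, then spleen with 2.09 and 2.78, and liver with 1.19 and 1.50. In brain it was 0.137 in BN-Lx and 0.0383 in SHR, from 198 and 44 reads, and both lay below the other 10 libraries.

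mir-199a-3p had its highest levels in heart, spleen and kidney. It reached 5.39 in BN-Lx and 5.97 in SHR heart, 5.19 and 5.17 in spleen, and 5.17 and 4.64 in kidney. In testis it was 1.88 and 2.22. Brain held 0.216 and 0.264, from 313 and 303 reads, the strains being closer here than for the 5p arm. Liver stood apart, with 1.98 in BN-Lx and 0.107 in SHR, so that the SHR liver lay below both brains and the BN-Lx liver beside testis.

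mir-214-3p, the main product of the other hairpin, was read far less often but followed a similar course. Its level was 0.305 in BN-Lx and 0.248 in SHR heart, 0.202 and 0.185 in kidney, and 0.168 and 0.143 in spleen. Testis (0.157 and 0.112, from 5 and 4 reads) and liver (0.110 and 0.100) came next. Brain was lowest with 0.00899 and 0.00958, from 13 and 11 reads. The strains lay close together in every tissue, the largest log2 ratio of SHR over BN-Lx being -0.48 in testis. For each 100 reads of mir-199a there were between 1.80 and 3.48 reads of mir-214-3p in 11 libraries of the 6-tissue set and 6.22 in SHR liver 1, while the further livers had 3.08 to 6.19.

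**Figure D1:**
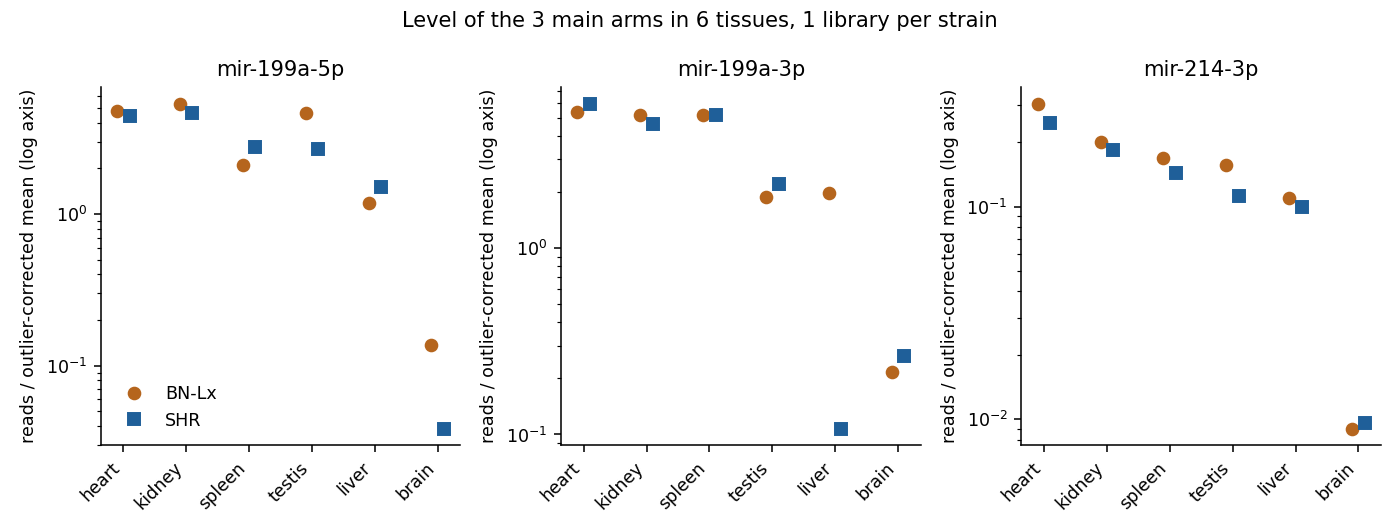
Reads divided by the ocm of the library (log axis) for mir-199a-5p, mir-199a-3p and mir-214-3p in 6 tissues, with 1 point per strain (circle BN-Lx, square SHR). Brain was lowest in all panels except for mir-199a-3p, where SHR liver at 0.107 lay below the brains at 0.216 and 0.264.

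That mir-199a-5p and mir-214-3p were low in brain was known before, so the test across tissues gives the size of the difference rather than independent support for it. In edgeR, brain was compared with the mean of the 5 other tissues, with strain as a term and the strains serving as replicates. This mean includes liver, where the mir-199a values chose the members. Over 457 arms tested, 23.0% were lower in brain at an adjusted p below 0.05, and all 3 main arms were among them. The log2 fold change was -5.66 (SE 0.56, adjusted p = 2.21e-06) for mir-199a-5p. It was -4.06 (SE 0.84, adjusted p = 0.00108) for mir-199a-3p and -4.53 (SE 0.54, adjusted p = 1.29e-05) for mir-214-3p. The median over all arms was 0.46, and relative to it the values were -6.13, -4.53 and -4.99. Left out of the fit, SHR liver 1 moved mir-199a-3p to -4.42 with an SE of 0.41. Fewer cells of a type and less RNA per cell cannot be told apart in such whole tissues.

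Among the 15 pairs of tissues, mir-214-3p differed from brain in all 5 pairs, and both mir-199a arms in the 4 without liver. The share of all arms lower in brain was 24.9% against liver, 24.5% against spleen, 22.1% against heart, 17.1% against testis and 25.8% against kidney. In the order of levels, only some neighbours differed beyond the spread of the strains. Heart and kidney did not differ for mir-199a-5p (log2 0.11, SE 0.48, adjusted p = 0.978), nor heart and spleen or spleen and kidney for mir-199a-3p (adjusted p = 0.905 and 0.917), nor heart and kidney or kidney and spleen for mir-214-3p (adjusted p = 0.414 and 0.862). Liver exceeded brain for mir-214-3p (adjusted p = 9.02e-05). The liver values of both mir-199a arms chose the members and are not tested. For mir-199a-5p both livers lay above both brains. For mir-199a-3p, BN-Lx liver at 1.98 lay above and SHR liver at 0.107 below both brains. Its call of brain against testis was lost without either brain, without BN-Lx spleen and without SHR testis.

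Outside brain, mir-214-3p was called in 2 of 10 pairs. Liver was called below heart for mir-214-3p, with a log2 fold change of -1.58 (SE 0.51), where 20.4% of arms differed. Over the omission of each library in turn, that call held only without BN-Lx testis and without SHR kidney. For mir-199a-5p the log2 fold change of liver against heart was -1.94 (SE 0.50), given as a description. Heart was also called above testis in all 3 arms, by 1.61, 2.67 and 2.28, where 29.5% differed. That call was lost for mir-199a-5p without either spleen, heart or testis, for mir-199a-3p without either spleen, either testis or SHR heart, and for mir-214-3p without either heart or testis. mir-199a-5p was in addition called higher in kidney than in testis, where 28.2% of arms differed. For liver against kidney, where 18.2% of arms differed, the log2 fold change of mir-199a-5p was -1.83 (SE 0.50), given as a description. With the ocm its difference of testis from kidney was -0.48 (adjusted p = 0.585). That of liver from kidney was -1.87 (SE 0.54) with the ocm, again a description. The call of testis against kidney was lost without any 1 of the spleen, heart, testis or kidney libraries. The place of testis depends on the scaling, since with the ocm the differences of heart from testis were 0.37, 1.47 and 1.04 and none of them passed the test (adjusted p between 0.203 and 0.680). With the ocm, liver and heart no longer differed for mir-214-3p (adjusted p = 0.0702).

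The arms that ran most like the members were found by Pearson's r of the log2 level over the 12 libraries, which share tissues and depth, and r is given as a description. For mir-199a-5p the closest of 197 arms was mir-214-3p (r = 0.97), followed by mir-339-3p (0.92) and mir-145-3p (0.90). For mir-214-3p the closest of 509 arms was mir-199a-5p, followed by mir-143-3p (0.95) and mir-145-3p (0.93). For mir-199a-3p it was mir-214-3p (0.77), then mir-143-3p (0.76) and mir-199a-5p (0.74), so the arm from the same hairpin came behind both. Without the 2 livers, r of mir-199a-3p was 0.97 with mir-214-3p and 0.92 with mir-199a-5p. Brain carried much of this likeness, and without the brains r of mir-199a-5p with mir-214-3p was 0.82 over 10 libraries. Over the same libraries r of mir-199a-3p was 0.69 with mir-214-3p and 0.57 with mir-199a-5p.

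A list of hairpins known from mesenchyme, vessel wall and related cells (mir-143, mir-145, mir-152, mir-126, mir-21 and mir-22) was read in the same test. Of its 12 arms 10 were tested, 8 were lower in brain, 0 were higher and 2 were not called, against the 23.0% lower over all arms. Of these 2, mir-21-3p had a level of 0 in SHR brain and at most 0.035 elsewhere. Its value of -1.75 (SE 274) therefore says little. The median log2 fold change of the 10 arms, mir-21-3p included, was -2.26, beside 0.46 over all arms. mir-143-3p and mir-145-5p, both known from smooth muscle, had log2 fold changes of -2.77 and -2.68. mir-152-3p had -3.63 and mir-126-3p, the endothelial miRNA, had -1.82. Brain was not lowest for every arm called. The level of mir-126-3p was 2.51 and 3.09 in brain and 1.19 at its lowest elsewhere. That of mir-22-3p was 0.294 and 0.229 in brain and 0.225 at its lowest elsewhere. mir-21-5p had -4.73, beyond mir-214-3p and mir-199a-3p but not mir-199a-5p. From the most negative of the 457 values mir-199a-5p held place 3, mir-214-3p place 16 and mir-199a-3p place 21.

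Strain was tested in the 5 tissues other than liver, which the choice of members did not use, with tissue as a term. Over 290 arms, 0.00% were called, with 12 at an unadjusted p under 0.05 in edgeR and 17 in DESeq2, which also called 0. The log2 fold change of SHR over BN-Lx was 0.21 (SE 0.25, adjusted p = 0.925) for mir-199a-3p. It was -0.37 (SE 0.27, adjusted p = 0.922) for mir-199a-5p and -0.11 (SE 0.35, adjusted p = 0.954) for mir-214-3p, and the median over all arms was 0.13. By tissue, the log2 ratio of the levels of mir-199a-3p ran from -0.16 in kidney to 0.29 in brain. For mir-199a-5p it ran from -0.20 to 0.41 in kidney, heart and spleen, and was -0.78 in testis and -1.84 in brain, where BN-Lx had 198 reads and SHR 44.

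Arm use was then compared as the share of mir-199a reads that came from the 3p arm, with exact Clopper-Pearson 95% intervals. Whether loci other than the chromosome 13 hairpin gave some of these reads was not tested. Heart gave 52.9% (51.5 to 54.3) in BN-Lx and 57.4% (56.3 to 58.5) in SHR, and kidney 49.2% (48.0 to 50.3) and 49.9% (48.8 to 51.0). Spleen gave 71.2% (70.1 to 72.4) and 65.0% (63.6 to 66.4). The arms were thus read about equally in heart and kidney, and the 3p arm more often in spleen in both strains.

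In testis the 3p arm took 28.8% (22.8 to 35.5) in BN-Lx and 45.1% (37.6 to 52.8) in SHR. Brain gave 61.3% (56.9 to 65.5) in BN-Lx but 87.3% (83.4 to 90.6) in SHR, the widest gap between strains outside liver. Liver 1 gave 62.5% (59.7 to 65.2) in BN-Lx and 6.66% (4.91 to 8.78) in SHR. Whether the strains of a tissue share their ratio was asked without liver by an exact permutation test over all 945 ways to pair the 10 libraries, one-sided for small differences within tissues. Differences within tissues made up 27.4% of the variation of the log2 ratio, with an exact permutation p = 0.0656 and a smallest possible p of 0.00106. So a common arm ratio of the tissues was not shown beyond the spread of the strains. Without brain the share within tissues was 14.8% and the exact permutation p = 0.00952, which is the smallest that 105 pairings allow, and without spleen p was 0.00952 as well.

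**Figure D2:**
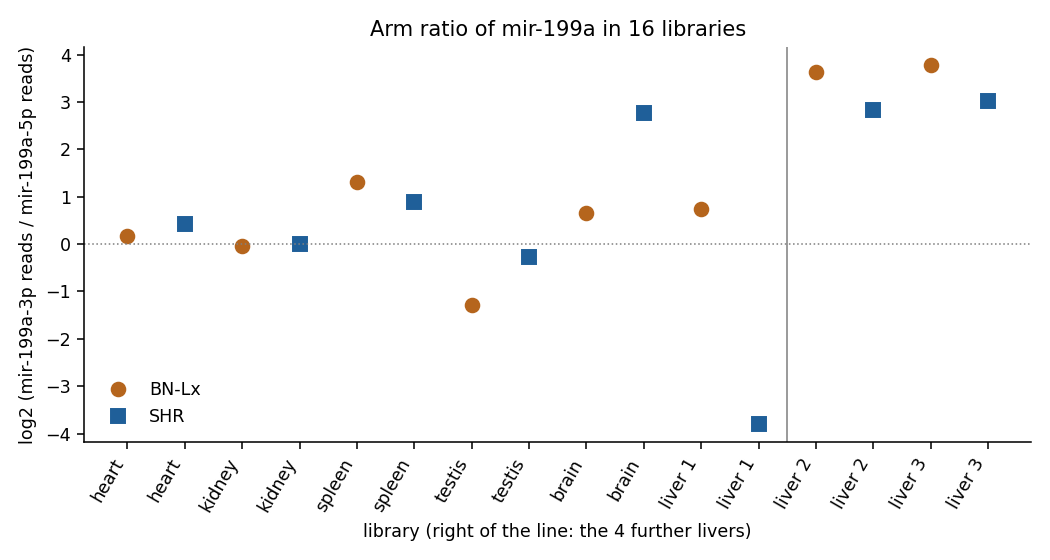
The log2 ratio of mir-199a-3p to mir-199a-5p reads (0.5 read added to each) in the 16 libraries, circles BN-Lx and squares SHR, with the 4 further livers right of the line. The further livers lay between 2.82 and 3.77, SHR liver 1 at -3.80, and every other library between -1.30 and 2.77.

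In the livers the arms parted in opposite ways. On the log2 scale the ratio of 3p to 5p was 0.74 in BN-Lx liver 1, 3.63 in BN-Lx liver 2 and 3.77 in BN-Lx liver 3. In SHR it was -3.80 in liver 1, 2.82 in liver 2 and 3.02 in liver 3. Expressed as shares, the 3p arm held 92.5% and 93.2% of the reads in the further BN-Lx livers and 87.6% and 89.0% in the further SHR livers. SHR liver 1 was thus the only liver with more 5p than 3p reads, 645 against 46, while BN-Lx liver 1 had 475 against 791.

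Taken arm by arm, with the ocm over the 6 livers, the 3p level of BN-Lx livers 1 to 3 was 1.63, 1.91 and 3.28, that of SHR livers 1 to 3 was 0.0884, 2.09 and 2.03. Here 5 livers lay within a narrow span and SHR liver 1 was alone at the bottom. The 5p level of BN-Lx livers 1 to 3 was 0.981, 0.154 and 0.239, that of the SHR livers 1.24, 0.295 and 0.251. For the 5p arm the livers divided by set instead, and both livers of the 6-tissue set lay above all 4 further livers, with a mean 4.72 times as high. The low 3p of SHR liver 1 therefore stood beside a 5p level like that of BN-Lx liver 1, and the further livers of both strains had high 3p and low 5p.

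mir-214-3p showed neither pattern. Livers 1 to 3 had levels of 0.0908, 0.0831 and 0.108 for BN-Lx, against 0.0826, 0.148 and 0.122 for SHR. SHR liver 1 lay at the low end of the range, next to BN-Lx liver 2, from 43 reads.

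**Figure D3:**
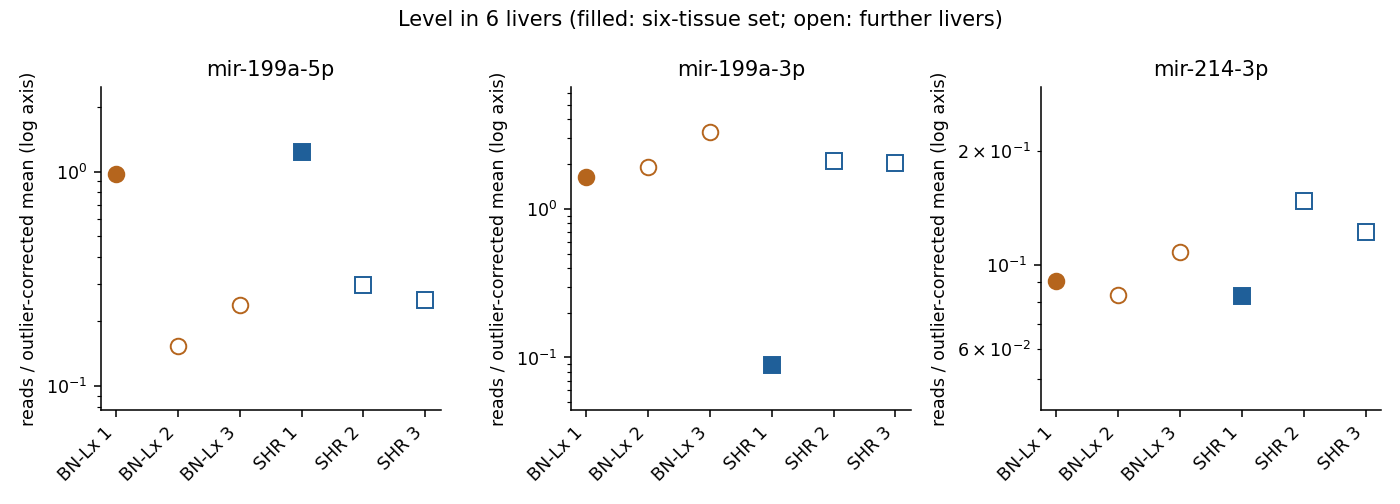
Reads divided by the ocm of the library (log axis, own range in each panel) for the 3 arms in the 6 livers, filled for the 6-tissue set and open for the further livers. mir-199a-5p was 0.981 and 1.24 in the filled points and at most 0.295 in the open ones, while mir-199a-3p was 0.0884 in SHR liver 1 and at least 1.63 elsewhere.

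Many other arms also differed between the sets. Of 218 arms with a read in every liver and at least 20 in the median one, 65 (29.8%) were higher in both livers of the 6-tissue set than in all further livers and 61 were lower. A log2 ratio at least as high as that of mir-199a-5p was found for 6 of the 218, itself included. Some lists of other cell types moved with the sets too. Reads of the blood-cell list, of which all 5 hairpins had reads in every liver, were 21488 and 22913 per 1000000 reads in the livers of the 6-tissue set and 10596 to 13192 in the further livers. The neuronal list gave 99.8 and 115 against 1.55 to 13.7, from only 50 and 54 reads against 5 to 16. For mir-126 of the endothelium the values were 9663 and 10911 against 22987 to 31992. The smooth-muscle list of mir-143 and mir-145 was at 39530 and 43520 against 44395 to 70377, and mir-122 of the hepatocyte was at 344195 and 389821 against 460432 to 496685. The kidney epithelium list was at 149948 and 104104 against 61692 to 82035, and the germ-cell list at 98.3 and 130 against 18.0 to 45.8. The muscle list did not follow the sets, with 169 and 126 in the livers of the 6-tissue set, 6.57 and 609 in BN-Lx livers 2 and 3, and 8.15 and 532 in SHR livers 2 and 3. Their part in the 5p level was not tested, and liver 1 differs from the further livers by set as well as by rat.

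The arm ratio of SHR liver 1 was also read in other hairpins. For each of the 29 hairpins with at least 20 reads on both arms in every liver, the log2 ratio in SHR liver 1 was compared with the median of the other 5 livers. The departure of mir-199a was -6.81, a description only, since this difference chose the members. That of mir-378 was -3.74, and its ratio was -0.09 in SHR liver 1 and 2.99 to 4.07 in the other livers. let-7d and let-7c-2 departed in the other direction, by 2.81 and 2.67. The median size of the departure was 1.26. Since the further livers differ from liver 1 in many ratios, BN-Lx liver 1 is the closer match, and against it alone mir-199a departed by -4.53 and mir-378 by -3.37, while the median size was 0.49. SHR liver 1 had more PCR cycles than BN-Lx liver 1, and cycles, strain and animal cannot be told apart in this pair.

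**Figure D4:**
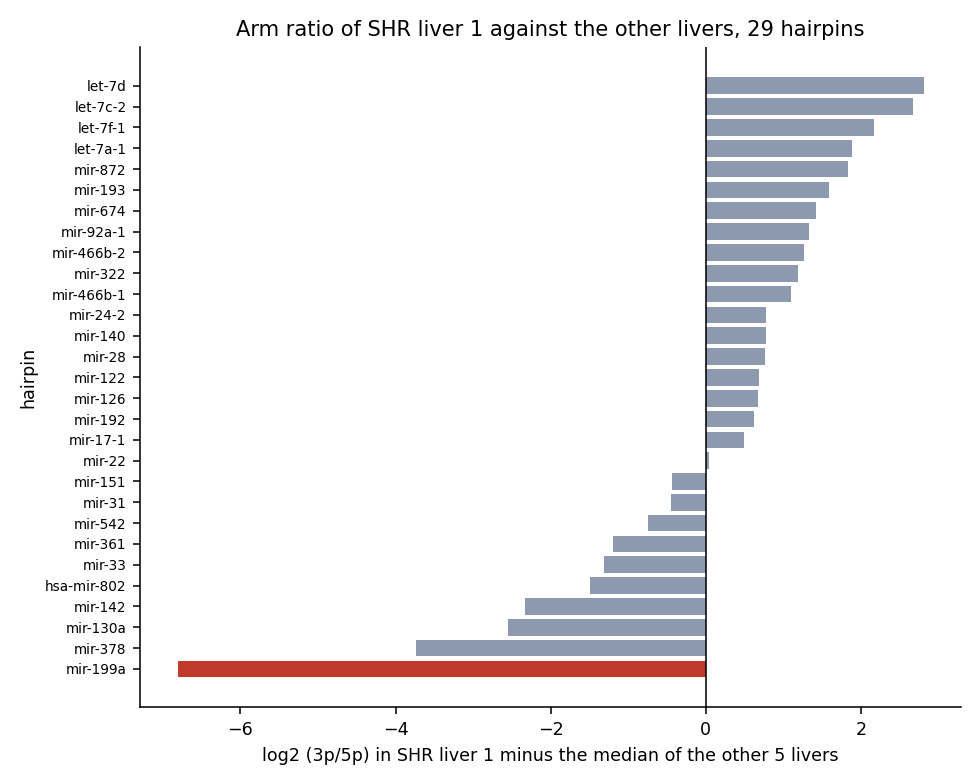
For 29 hairpins, the log2 ratio of 3p to 5p reads in SHR liver 1 minus the median of the other 5 livers, with mir-199a in red. mir-199a reached -6.81 and mir-378 -3.74, and the other hairpins lay between -2.55 and 2.81.

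Given as a description, the edgeR fit of the 6 livers with strain as the only term gave a log2 fold change of SHR over BN-Lx of -0.56 (SE 1.0) for mir-199a-3p, 0.25 (SE 0.83) for mir-199a-5p and 0.38 (SE 0.46) for mir-214-3p. Over the 271 arms of this fit 0.00% were called, with 6 at an unadjusted p under 0.05 in edgeR and 11 in DESeq2, which called 0 too. As an alternative, the fit was repeated with the replicate number as a block, and mir-199a-3p then had -1.34 and mir-199a-5p 0.44. Whether the numbers pair the livers was not shown. Without SHR liver 1 the value of mir-199a-3p was 0.04, and in the 4 further livers alone it was -0.17, so that its lower mean in SHR rests on that library. mir-199a-5p was -0.56 without SHR liver 1, -0.20 without BN-Lx liver 2 and -0.08 without BN-Lx liver 3, but 1.47 without BN-Lx liver 1.

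Read ends were not used to choose the members. Positions are counted along the hairpin as the files number it. The 5′ end of mir-199a-5p was nearly fixed, and between 97.9% and 100% of its reads started at position 31 in each of the 16 libraries. Its 3′ end varied between the following forms, shown because they differ by single bases at that end and share the seed in capitals.
mir-199a-5p 31 to 51: cCCAGUGUucagacuaccugu
mir-199a-5p 31 to 52: cCCAGUGUucagacuaccuguu
mir-199a-5p 31 to 53: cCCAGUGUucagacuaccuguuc
Over all libraries they made up 50.3%, 30.3% and 14.7% of 20072 reads, and the RefSeq sequence is the longest of them.

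The 3′ end of mir-199a-5p differed between tissues. The reads ending at position 51, the 21 nt form, made up 63.4% in BN-Lx and 62.0% in SHR heart, but 46.7% and 33.2% in kidney and 46.9% and 36.1% in spleen. The 22 nt form took 34.2% and 46.6% in kidney and 22.8% and 21.3% in heart. The mean 3′ end lay at 51.33 and 51.37 in heart, 51.39 and 51.43 in testis, and 51.47 and 51.41 in brain. It was 51.51 and 51.52 in liver, 51.61 and 51.68 in spleen and 51.65 and 51.71 in kidney. Within the 6-tissue set, heart thus had the shortest and kidney and spleen the longest reads in both strains. In the further livers the mean 3′ end lay at 51.51 (BN-Lx liver 2), 51.26 (BN-Lx liver 3), 51.11 (SHR liver 2) and 51.12 (SHR liver 3), so that 3 of them lay below both hearts and the range of all 6 livers spanned that of heart. In the exact permutation test over all 10395 pairings of the 12 libraries, differences within tissues made up 4.29% of the variation (p = 0.00106, adjusted p = 0.00635 over 6 tests, one-sided). The call did not hold for the share of reads at position 51 in place of the mean end (adjusted p = 0.291), nor without the livers (adjusted p = 0.0571), although the share within tissues was then 4.27% (exact permutation p = 0.00952).

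**Figure D5:**
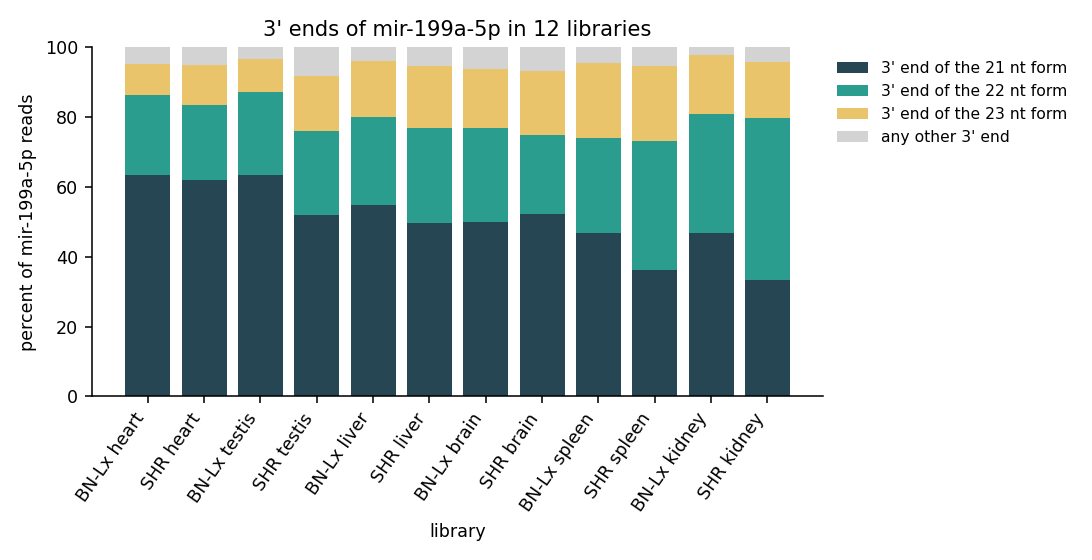
Percent of mir-199a-5p reads with the 3′ end of the 21, 22 or 23 nt form or any other end, in the 12 libraries of the 6-tissue set. The 21 nt end took over 60% in both hearts (63.4% and 62.0%) and 33.2% in SHR kidney, where the 22 nt end took 46.6%.

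For mir-199a-3p the form from 70 to 91, which is the RefSeq sequence, made up 59.6% of 40269 reads. The forms of 21 and 20 nt from the same start made up 22.5% and 7.93%. The start at position 70 took 84.8% to 92.7% of the reads in the 6-tissue set and 90.1% to 91.7% in the further livers. SHR liver 1, with 91.3% of its 46 reads at that start, lay within this range, so its few 3p reads began where those of the other libraries did. Neither its 3′ end (p = 0.0443, adjusted p = 0.133) nor its 5′ start (adjusted p = 0.827) differed between tissues in the exact permutation test, and nor did the 5′ start of mir-199a-5p (adjusted p = 1).

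The 3′ end of mir-199a-3p set the further livers apart from all other libraries. Reads ending at position 91 made up 80.5% and 83.0% in the further BN-Lx livers and 78.3% and 74.0% in the further SHR livers. In the 6-tissue set the share was 41.3% to 62.3%, with 44.9% in BN-Lx liver 1 and 41.3% in SHR liver 1, so the sets did not overlap. Longer reads in all further livers than in both livers of the 6-tissue set were found for 79 of 165 arms (47.9%) with at least 20 reads in every liver, mir-199a-3p among them, and shorter ones for 12, mir-199a-5p among them.

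mir-214-3p was read in a wider choice of forms. Reads of 17 nt made up 7.53% to 27.7% in the 6-tissue set without brain and testis, whose libraries had 4 to 13 reads. The following are shown because a form of this length, which keeps the seed, was frequent in the 6-tissue set and rare in the further livers.
mir-214-3p 71 to 92: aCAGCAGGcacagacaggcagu
mir-214-3p 71 to 91: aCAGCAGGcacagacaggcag
mir-214-3p 71 to 87: aCAGCAGGcacagacag
mir-214-3p 70 to 91: uACAGCAGgcacagacaggcag
They made up 32.2%, 22.4%, 9.04% and 5.22% of 1914 reads. Reads of 17 nt took 25.0% and 11.6% in BN-Lx and SHR liver 1, and 25.4% and 27.7% in kidney. In the further SHR livers they took 1.50% and 2.95%, and in the further BN-Lx livers 0 of 96 and 0 of 110 reads, which allow shares of up to 3.13% and 2.73%. The last form starts a base earlier and so has another seed, and reads from position 70 took 14.6% to 23.6% in the further livers and 0 to 14.1% in the 6-tissue set. The share of all arms that part the sets by 17 nt reads or by start is not given here. Neither is therefore shown to be particular to mir-214-3p. By mean length, 47.9% of 165 arms were longer in all further livers than in both livers of the 6-tissue set. mir-214-3p was not among them, with a mean length of 20.68 nt in SHR liver 2 and 20.79 nt in SHR liver 1. Between the 4 tissues with at least 20 reads in both libraries (liver, spleen, heart and kidney), neither the mean 3′ end (adjusted p = 0.533) nor the share at start 71 (adjusted p = 0.827) passed the exact permutation test, whose smallest p is 0.00952.

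The other arm of mir-214 was close to the limit of detection. mir-214-5p had 19 reads in 8 libraries, against 1914 of the 3p arm, and these fell into 2 groups, shown because they meet at position 30.
mir-214-5p 14 to 30: agaguugucaugugucu
mir-214-5p 30 to 46: uGCCUGUCuacacuugc
The former is the RefSeq mir-214-5p, whose seed (bases 2 to 8) is left unmarked here, and 12 reads ended with it at position 30. The other 7 reads started at position 30, in BN-Lx spleen, SHR heart, SHR kidney and SHR liver 2. In the remaining 8 libraries there was no read of this arm, for which a count of 0 allows up to 3 reads. The files also hold a hairpin on the opposite strand of mir-214, which had 3 reads in all, 1 in SHR spleen (88 to 106) and 2 in SHR kidney (72 to 92), beside 1933 of mir-214. Whether these reads belong to mir-3120, the miRNA annotated on that strand, was not tested.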

How the data were processed

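The deposited values are estimated counts, not normalized: the authors counted reads by start and end position on each hairpin and split a read evenly among the hairpins it fits. The authors sequenced on SOLiD, mapped the linker-trimmed reads to hairpins of RGSC3.4 and miRBase, and kept perfect matches. Lines for the same position were summed, positions were assigned to arms, and counts were rounded for tests. The further livers also hold reads of 15 and 16 nt. The piRNA cluster list was not used here.

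Arms were tested with edgeR 4.0.16, using its quasi-likelihood test after TMM scaling and filterByExpr (two-sided, Benjamini-Hochberg over all arms, threshold 0.05), or, as an alternative, DESeq2 1.42.0, in R 4.3.3. The edgeR test, but not DESeq2, was tried on simulated counts. In the tissue fits the 2 strains are the replicates of a tissue, and each strain is 1 rat, so p-values measure the spread between these libraries. Arm ratios and read ends were compared by exact permutation over pairings of the libraries (Python 3.11.15, numpy 2.4.6), and intervals used scipy 1.17.1. Ratios had 0.5 read added to each arm, and tissues with under 20 reads of an arm in a library were left out of the read-end tests. The ocm was taken over 589 arms of hairpins with a rat name in the 6-tissue set and 487 in the livers.

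Named arms are those of both hairpins, the antisense hairpin of mir-214, the 3 arms with the highest r for each main arm (at least 20 reads in the median library, or in sum for mir-214-3p), the 3 hairpins besides mir-199a farthest from the other livers in arm ratio, and a fixed stromal list. Members and lists were chosen with earlier results of these data known.

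The labels number livers 2 and 3, and liver 1 is that of the 6-tissue set. Deviations from the strain mean correlated over 271 arms at 0.668, 0.571 and 0.301 between livers that share a number. Livers with different numbers were not compared, and in both strains liver 1 is of another set than livers 2 and 3. These values therefore cannot show that the numbers pair the livers, and the block by number is an alternative only.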

Additional observations from a re-analysis of the deposited data

How the results depend on the processing

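Brain remained lower for mir-199a-5p, mir-199a-3p and mir-214-3p under every other tool, scaling, filter and omission tried, with log2 fold changes over the omitted libraries from -6.79 to -4.98, -4.60 to -3.60 and -4.73 to -4.43. Over all arms, edgeR called 178 higher and 105 lower in brain and DESeq2 114 and 143, and omitting a library gave 146 to 185 higher and 72 to 108 lower. The median over all arms moved from 0.46 to 0.94 with the ocm and -0.12 in DESeq2. Pairs of tissues called for mir-199a-3p fell from 7 to 4 of 15 with the ocm. Omitting a library, chosen as an alternative after seeing the data, gave 3 (without BN-Lx spleen) to 11 (without BN-Lx liver) pairs for mir-199a-3p, 6 to 9 for mir-199a-5p and 5 to 7 for mir-214-3p. The counts of the mir-199a arms include pairs with liver, whose values chose the members, so they are a description only. The log2 level of brain over the geometric mean of the other tissues, -5.39 for mir-199a-5p, became -4.51 in BN-Lx and -6.28 in SHR alone, and that of mir-214-3p became -3.88 with the library total instead of -4.13 with the ocm.

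With the replicate block, which pairs the livers by number, mir-199a-3p in liver moved from -0.56 to -1.34. It changed no other call, as 0 arms were called with or without it. Omitting a liver gave -0.94 to 0.04 for mir-199a-3p, -0.56 to 1.47 for mir-199a-5p and 0.14 to 0.69 for mir-214-3p. In the 5 other tissues the strain values stayed between 0.02 and 0.30 for mir-199a-3p, -0.55 and -0.19 for mir-199a-5p, and -0.31 and -0.03 for mir-214-3p, without a call. The departure of SHR liver 1 in arm ratio stayed between -7.12 and -6.71 without any other liver. At a minimum of 50 reads mir-199a was not among the hairpins compared.

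The permutation p of the arm ratio ranged from 0.00952 to 0.190 over omitted tissues, was 0.00952 without brain or without spleen, 0.0952 without kidney, 0.105 without heart and 0.190 without testis. It was 0.349 with the livers, whose ratios chose the members, so that value is a description only. For the 3′ end of mir-199a-5p the adjusted p was 0.0571 without the livers and 0.291 for the share at the most frequent end. The cause of these changes was not tested. Few reads of mir-214-3p in brain and testis (4 to 13) and of mir-214-5p limit what can be said of them.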
